A study of Mus musculus with 6 samples.

Results

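Chemokines and their receptors were examined in ovaries of mice bearing a breast tumor and of control mice. The set holds the 59 genes, of 19423 in the deposited gene table, whose symbol begins with Ccl, Cxcl, Ccr or Cxcr and a number, or equals Cx3cl1, Cx3cr1, Xcl1, Xcr1 or one of Ackr1 to Ackr4. It comprises 22 CC ligands, 12 CXC ligands, 2 other ligands, 19 signaling receptors and 4 atypical receptors. The tumor group held 3 ovary libraries of female balb/c-nude mice that had been given a subcutaneous injection of cells named MBA-MD-231 in the labels, and the control group held 3 ovary libraries of female balb/c-nude mice. All 6 samples were labelled day 80, without saying whether this is an age or a time after injection. In the treatment labels of the 3 tumor samples the number that ends the cell name increases from sample to sample, while the cell line label is the same. Nude mice lack a functional thymus and so most mature T cells, whereas their B cells, natural killer cells and myeloid cells remain. Nothing in the labels says which animals or litters the ovaries came from, so p-values measure only the spread between these samples, which may be technical. The study's title links the tumor to oxidative stress and follicle loss, and the comparison here asks whether transcripts that guide leukocytes differ in level in the ovary.

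Chemokines are small secreted proteins that bind G protein-coupled receptors and direct the migration of leukocytes and other cells along a gradient. CC, CXC and CX3C ligands are named for the spacing of conserved cysteines near their amino terminus. Some, such as Cxcl12 and Ccl21a, are made constantly by stromal and endothelial cells, and others, such as Cxcl1, Ccl2 and Cxcl10, are induced by inflammatory signals. Atypical receptors bind chemokines without signaling through G proteins and take them up from the surroundings. In the ovary, chemokines are known for bringing macrophages and granulocytes to the ovulating follicle and to the corpus luteum.

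Depth was similar in all libraries, with 18278614 to 18482073 estimated reads in tumor and 18804610 to 19238900 in control libraries. Levels are given as CPM, the reads of a gene scaled to a fixed library total. Where a gene had 0 reads, a level of up to 3 reads is allowed by counting error alone, or 0.162 to 0.164 CPM in tumor and 0.156 to 0.160 CPM in control libraries. Tumor library 1 stood apart from tumor libraries 2 and 3. Its score on principal component 1 of all tested genes (51.5% of the variance) was -38.7, against 48.8 and 75 for tumor libraries 2 and 3 and -40.2, -41.8 and -3.07 for control libraries 1 to 3. On principal component 2 (29.6%) it stood apart from the control libraries too. Its score there was -66.5, against -4.87 and -8.32 for tumor libraries 2 and 3 and 35.2, 4.24 and 40.3 for control libraries 1 to 3. The summed level of 8 theca and luteal cell markers was 2577, 9409 and 10490 CPM in tumor libraries 1 to 3, against 14790, 16280 and 15320 CPM in control libraries 1 to 3. The summed level of 8 adipocyte markers was 7580, 684.1 and 3082 CPM in tumor libraries, against 490.9, 697.7 and 543.8 CPM in control libraries. Granulosa cell markers summed to 2762, 4697 and 4856 CPM in tumor libraries and 4437, 3570 and 4350 CPM in control libraries, and no marker of the 12 cell type lists was at 0 in every library. For some results below that moved strongly without tumor library 1, the value without that library is given beside them.

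As levels per transcript length, 8 genes of the set averaged more than 20 TPM (the deposited level, scaled by transcript length and library) over the 6 libraries, 29 averaged 1 to 20 TPM and 22 averaged less than 1 TPM. Ligand transcripts summed to 840.1, 1108 and 964.4 TPM in tumor libraries 1 to 3, against 989.7, 1262 and 936.5 TPM in control libraries 1 to 3. The 4 most abundant ligands, Ccl21a, Cxcl14, Cxcl12 and Cxcl16, made up 70.0%, 87.4% and 87.5% of that sum in tumor libraries, against 83.9%, 85.7% and 83.1% in control libraries. Receptor transcripts, atypical receptors included, summed to 99.16, 78.79 and 70.62 TPM in tumor libraries, against 88.63, 98.46 and 98.92 TPM in control libraries. In all 6 libraries these 4 genes made up most of the ligand transcripts, and the ranges of the ligand and receptor sums overlapped between the groups.

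**Figure D1:**
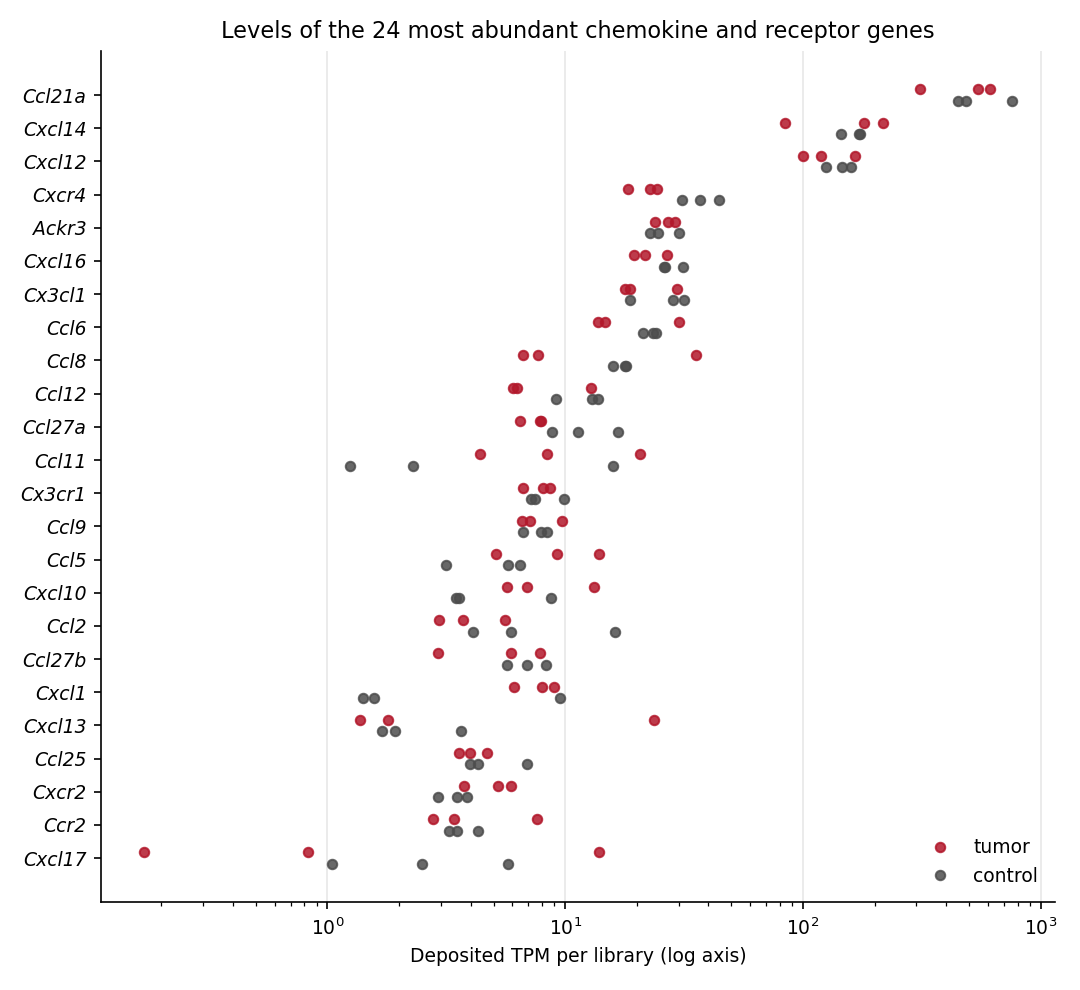
Deposited TPM in each library (log axis) for the 24 genes of the set with the highest mean TPM, tumor libraries in red above control libraries in gray. Ccl21a, Cxcl14 and Cxcl12 stand above the rest in every library, and the points of both groups overlap for most genes, with Cxcr4 lower in all 3 tumor libraries.

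The level of 1 gene of the set differed between tumor and control ovaries past the test's threshold: Cxcr4, the signaling receptor for Cxcl12, was lower in tumor ovaries. Of the 59 genes, 43 had enough reads to be tested by edgeR's quasi-likelihood test with Benjamini-Hochberg adjustment over 15787 genes, and 16 did not. With adjusted p under 0.05, 0 of the 43 were higher and 1 was lower in tumor, which is 2.33% of those tested. Among all genes tested, 7.71% were called, 3.80% higher and 3.91% lower. At an unadjusted p under 0.05, 8 of the 43 genes passed, 6 lower and 2 higher in tumor (18.6%, against 31.0% of all genes). DESeq2 on the same counts called 1 gene of the set higher (Cxcl9) and 2 lower (Cxcr4 and Ackr4) of 40 with an adjusted p, while it called 19.4% of all genes it gave an adjusted p. The 3 tumor and the 3 control CPM values did not overlap for 9 of the 43 genes, 7 lower and 2 higher in tumor (20.9%, against 38.2% of all genes). Of the 7 lower, Cxcl16, Ccl7, Ccr1 and Ccr10 did overlap between the groups in deposited TPM. Each of the edgeR and overlap shares of the set was below that of all genes.

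The median log2 fold change (tumor over control) of the 43 tested genes was -0.171, with 19 positive and 24 negative values between -1.6 and 2.0. Over all genes tested the median was -0.0154, with an interquartile range of -0.309 to 0.273. The median over 18 CC ligands was -0.234, and it stayed negative, at -0.3 to -0.0656, with any single library left out. With a correction for gene length it was -0.016, with 9 positive and 9 negative values. Over 9 CXC ligands the median was 0.468, and -0.393 without tumor library 1, 0.101 without tumor library 2 and 0.114 without control library 3. Its sign also depended on the method with all libraries kept. It was -0.266 with a replicate block, -0.0792 with limma on log2(FPKM + 1) and -0.224 with limma on log2(FPKM + 0.1). In the other alternatives with all libraries it was 0.457 to 0.804. Of 11 signaling receptors 6 had a positive value, and 4 did without tumor library 1. The median over the 4 atypical receptors was -0.33, and -0.166 without control library 2. Without tumor library 1, edgeR called 5 genes of the set, all lower in tumor: Cxcr4, Ccl6, Ackr4, Ccl8 and Cxcl16. In that fit 16.3% of all genes tested were called.

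**Figure D2:**
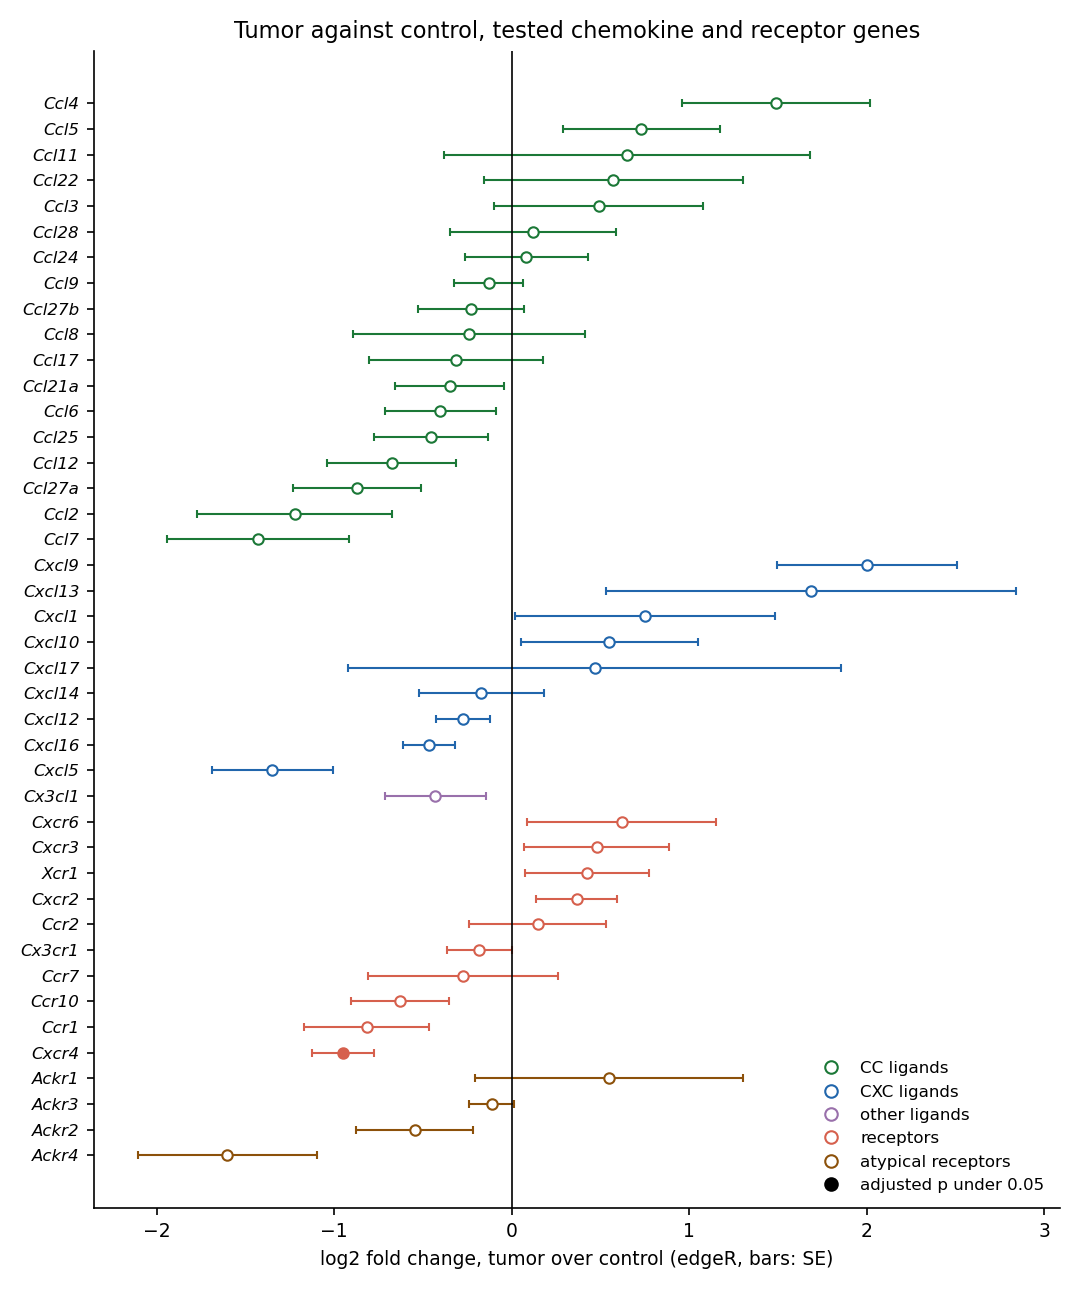
Log2 fold change of tumor over control for 42 of the 43 tested genes of the set (points) with its standard error (bars), grouped by class. The 1 filled point is Cxcr4 at -0.95, and the other points, at -1.6 to 2.0, did not pass the threshold.

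Cxcr4 carries cells toward Cxcl12 and is known on leukocytes, endothelial cells and many stromal cells. Its level was 18.4, 17.4 and 14.99 CPM in tumor libraries 1 to 3, against 34.3, 25.7 and 38.4 CPM in control libraries 1 to 3. Every tumor library lay below every control library. The mean was 16.96 ± 1.78 CPM in tumor and 32.8 ± 6.505 CPM in control ovaries (SD, n = 3 each). This is 0.517-fold, or -0.95 ± 0.18 (SE) on the log2 scale, with adjusted p = 0.0386 in edgeR's quasi-likelihood test. Over the alternatives tried, the log2 fold change stayed between -1.05 and -0.79 and the adjusted p between 0.000276 and 0.153. The call ended without tumor library 2 (adjusted p = 0.0986), without tumor library 3 (0.124), without control library 1 (0.153), without control library 3 (0.129), and with a correction for gene length (0.0617). Without tumor library 1, it remained at -1.01 with adjusted p = 0.0344. Beside it, the summed level of 10 macrophage markers was 542.5, 374.1 and 347.7 CPM in tumor libraries, against 582.0, 431.0 and 657.3 CPM in control libraries, with 0 of the 10 called by edgeR, 3 at an unadjusted p under 0.05 and 2 lower by DESeq2. The theca and luteal sum given above was lower in every tumor library than in every control library, with 2 of its 8 markers called lower by edgeR. Of these markers, Insl3, at 0.86, and Cyp17a1, at 0.51, had positive log2 fold changes by edgeR and were not called. The others had negative ones. Blood endothelial markers summed to 443.9, 482.8 and 513.9 CPM in tumor libraries, against 529.1, 508.8 and 522.9 CPM in control libraries, with 0 of the 9 called by edgeR, 4 at an unadjusted p under 0.05, and by DESeq2 Vwf higher and Emcn lower. Mast cell and eosinophil markers summed to 119.0, 193.6 and 151.0 CPM in tumor libraries, against 77.99, 132.1 and 71.8 CPM in control libraries, most of it Kit, which the ovary itself also expresses. Of the 6 tested, 0 were called by edgeR, 4 had an unadjusted p under 0.05, and DESeq2 called Kit higher and Cpa3 lower. Without tumor library 1, edgeR called Cpa3 and Tpsb2 lower, and of the macrophage markers C1qa, C1qb and C1qc lower. In that fit Kdr of the blood endothelial markers was called higher. Of the theca and luteal markers, Akr1c18, Cyp11a1 and Ptgfr were called lower in it. That fit called 16.3% of all genes tested. Cpa3, a mast cell protease, was at 2.55, 1.39 and 0.818 CPM in tumor libraries, against 5.13, 4.87 and 3.45 CPM in control libraries. By edgeR the log2 fold changes were -1.50 for Cpa3, -1.20 for Tpsb2, -0.97 for Mcpt4 and -0.85 for Cma1. The values of Kit, at 0.95, and Siglecf, at 1.11, were positive. Of the macrophage markers, Adgre1 and Cd163, each at 0.40, and Csf1r, at 0.04, were positive with all libraries kept. The other macrophage markers were negative, from -0.66 for C1qc to -0.006 for Mrc1. The unadjusted p was under 0.05 for 30.0% of macrophage, 44.4% of blood endothelial and 37.5% of theca and luteal markers. It was so for 66.7% of the mast cell and eosinophil markers tested, against 31.0% of all genes tested. Of the theca and luteal markers edgeR called 25.0%, against 7.71% of all genes. DESeq2 called 19.4% of all genes it gave an adjusted p. The part of any of these cell types in the Cxcr4 difference was not tested. In bulk tissue, fewer cells of a type and less RNA per cell cannot be told apart, here and for every gene below.

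The gene lies on chromosome 1 at 128588199 to 128592299 on the minus strand (GRCm38.p6). Its promoter is shown because it is the single gene of the set whose level passed the test. The window, from RefSeq on GRCm38.p6, spans 250 bases before to 50 bases after the transcription start, at chr1:128592250-128592549 on the minus strand. Capitals mark matches to the motifs searched on both strands: the GC box GGGCGG, the TATA box letters TATAAA, the hypoxia element core ACGTG, the STAT element TTCNNNGAA, the interferon-stimulated element TTTCNNTTTC and the NF-kappaB consensus by its usual definition.
Cxcr4: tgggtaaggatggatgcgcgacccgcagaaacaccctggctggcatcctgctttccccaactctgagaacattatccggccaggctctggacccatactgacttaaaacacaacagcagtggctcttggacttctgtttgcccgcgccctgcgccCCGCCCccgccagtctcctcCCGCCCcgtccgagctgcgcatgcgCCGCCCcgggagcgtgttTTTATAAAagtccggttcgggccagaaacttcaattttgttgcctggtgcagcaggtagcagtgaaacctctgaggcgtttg
It held 3 matches to GGGCGG, which Sp1 family factors bind, all on the opposite strand, beginning 95, 75 and 50 bases before the start. A pair of overlapping TATAAA matches, 1 on each strand, began 32 and 30 bases before the start. A match is a description of the letters only and does not show binding. Of the 45 genes of the set with a promoter in the table, 9 held GGGCGG, against 35.9% of 27025 promoters of the same length, and 13 held TATAAA (28.9%, against 14.2%).

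Cxcl12, the ligand of Cxcr4, was at 166.6, 141.2 and 123.3 CPM in tumor libraries and 183.8, 147.1 and 190.3 CPM in control libraries. The ranges overlapped, and the log2 fold change was -0.27 ± 0.15 (SE), with adjusted p = 0.270 by edgeR. Ackr3, the atypical receptor that removes Cxcl12, was at 25.5, 21.5 and 24.97 CPM in tumor and 24.1, 28.99 and 24.7 CPM in control libraries. Its ranges overlapped as well, with a log2 fold change of -0.11 ± 0.13 (SE) and adjusted p = 0.590 by edgeR. As levels per length, Cxcl12 averaged 128.1 TPM in tumor and 143.1 TPM in control ovaries. Cxcr4 averaged 21.8 TPM in tumor and 37.3 TPM in control ovaries, and Ackr3 averaged 26.6 TPM in tumor and 25.8 TPM in control ovaries. In tumor ovaries the mean of Ackr3 was thus above that of Cxcr4, and in control ovaries it was below it.

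**Figure D3:**
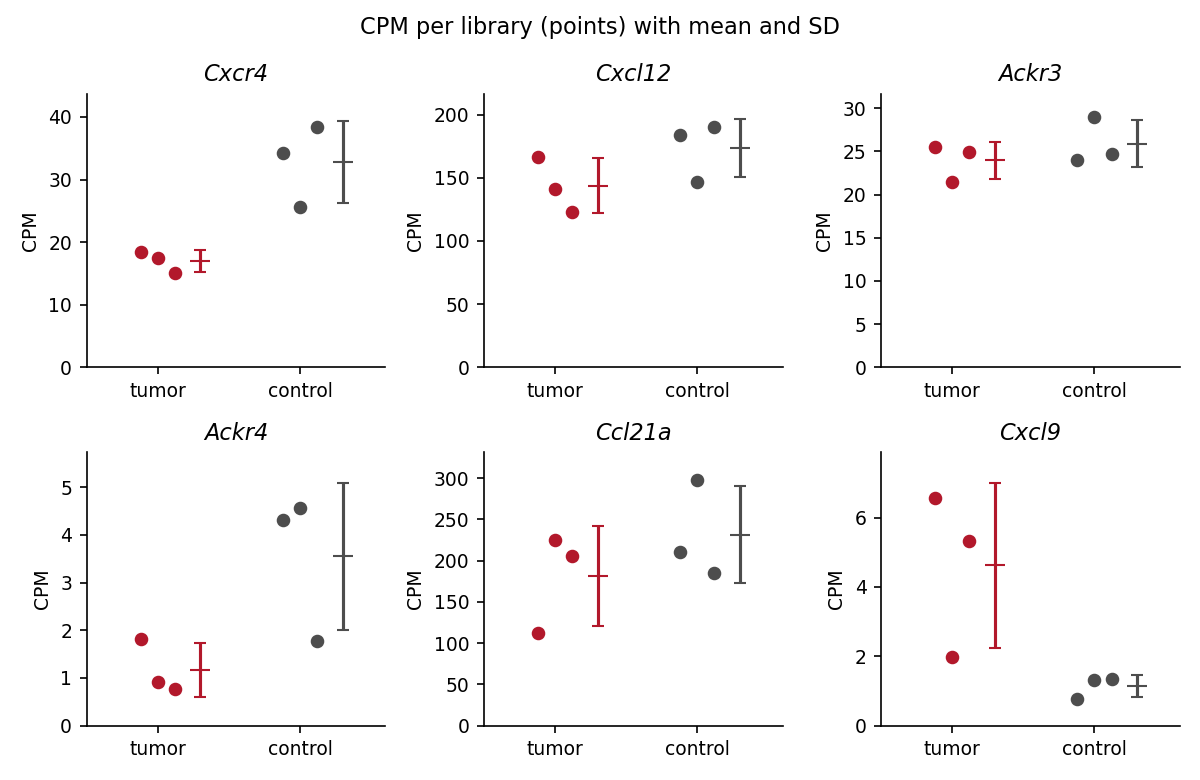
CPM in each library (points), with the mean and SD of each group (n = 3), tumor in red left of control in gray, for Cxcr4, Cxcl12, Ackr3, Ackr4, Ccl21a and Cxcl9. The 3 tumor values of Cxcr4 lie below, and those of Cxcl9 above, all 3 control values, and the groups of the other genes overlap.

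Cxcl12 was deposited as 3 transcripts, the alpha, beta and gamma forms, which differ in their last exons and so in the carboxy terminus of the protein. The short alpha form was at 129.3, 73.86 and 63.59 TPM in tumor libraries, against 99.34, 84.75 and 106.4 TPM in control libraries. The beta form was at 23.30, 30.92 and 22.71 TPM in tumor libraries, against 39.67, 29.27 and 45.09 TPM in control libraries. The long gamma form was at 12.11, 14.40 and 14.03 TPM in tumor libraries, against 7.14, 10.42 and 7.34 TPM in control libraries. The gamma values of the tumor libraries lay above all control values, and the alpha and beta values overlapped. As a share of the gene's estimated reads, gamma took 24.5% ± 5.92 in tumor and 13.9% ± 4.58 in control ovaries (SD, n = 3 each), with overlapping libraries and p = 0.2 in a two-sided exact permutation test, whose smallest possible p is 0.1. The shares of beta were 25.6% ± 5.87 in tumor and 34.4% ± 3.91 in control ovaries (p = 0.2, same exact permutation test), and those of alpha were 49.9% ± 11.1 in tumor and 51.7% ± 0.862 in control ovaries (p = 1.0, same exact permutation test). These splits are estimates from 50-base single reads, and for Cxcr4, whose 3 deposited transcripts included several at 0 in single libraries, no split is given.

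**Figure D4:**
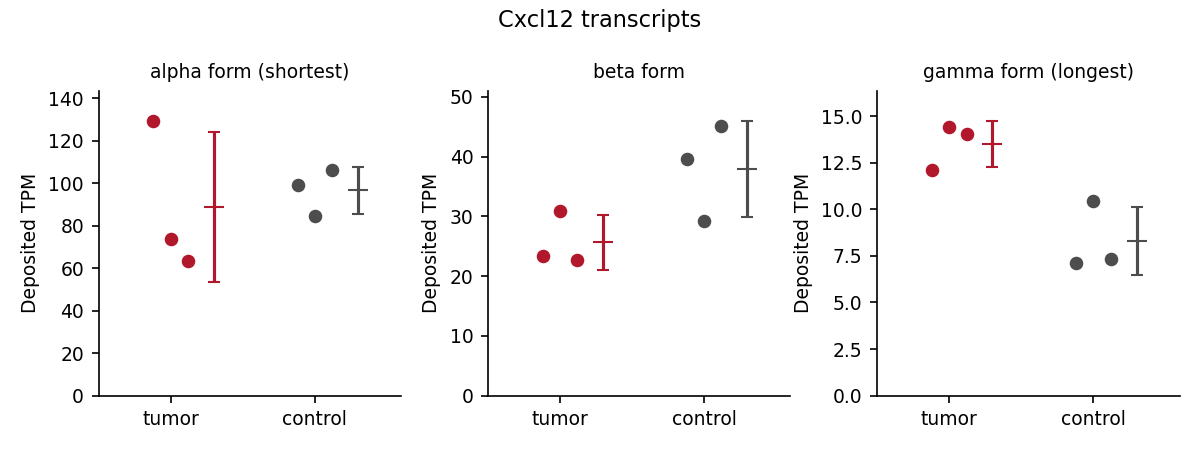
Deposited TPM of the 3 Cxcl12 transcripts in each library (points), with the mean and SD of each group (n = 3), tumor in red left of control in gray. The gamma form lies at 12.11 to 14.40 TPM in tumor and 7.14 to 10.42 TPM in control libraries, without overlap, while the other forms overlap.

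Ccl21a, which draws dendritic cells and lymphocytes into lymphatic vessels and is made by lymphatic endothelium, was the most abundant gene of the set. It was at 311.9, 610.2 and 544.0 TPM in tumor libraries and 484.6, 754.5 and 448.6 TPM in control libraries. As CPM, it was at 112.8, 225.7 and 206.3 in tumor and 210.9, 298.0 and 185.6 in control libraries, with a log2 fold change of -0.35 ± 0.31 (SE) and adjusted p = 0.481 by edgeR. Tumor library 1 was the lowest of all, and without it the log2 fold change was -0.0991. Ccl21a has near-identical copies in the mouse genome, so its estimated reads depend on how shared reads were divided. Lymphatic endothelial markers summed to 187.3, 197.0 and 191.5 CPM in tumor libraries and 209.4, 199.6 and 205.6 CPM in control libraries, and 0 of these 6 markers was called by edgeR (0 also at an unadjusted p under 0.05, and 0 by DESeq2). Without tumor library 1, edgeR called Reln higher and Pdpn lower, in a fit that called 16.3% of all genes tested.

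The other parts of the Ccl21a system were scarce. Ccr7, the receptor of Ccl21a and Ccl19 on dendritic cells and naive lymphocytes, was at 0.312, 0.799 and 0.218 CPM in tumor and 0.595, 0.588 and 0.431 CPM in control libraries, with a log2 fold change of -0.28 ± 0.54 (SE) and adjusted p = 0.771 by edgeR. Dendritic cell markers summed to 65.89, 74.12 and 59.25 CPM in tumor and 51.09, 58.15 and 55.07 CPM in control libraries, without overlap. Of these 6 markers, 0 were called by edgeR or DESeq2. Itgax, at 0.93, had an unadjusted p under 0.05 by edgeR (16.7% of the list, against 31.0% of all genes). Siglech, at -0.51, was negative and the others were positive. Ccl19 was not tested, with 0.648, 0.0187 and 0 CPM in tumor libraries and 0.437, 0.122 and 0 CPM in control libraries. Ackr4, the atypical receptor that clears Ccl19, Ccl21 and Ccl25, was at 1.83, 0.909 and 0.766 CPM in tumor and 4.303, 4.56 and 1.78 CPM in control libraries. The groups met only where tumor library 1 lay just above control library 3. Its log2 fold change of -1.6 ± 0.50 (SE) was the most negative in the set, with adjusted p = 0.0911 by edgeR and 0.0441 by DESeq2. Without tumor library 1 it was -2.08, with adjusted p = 0.0454 by edgeR. Ackr4 overlaps Acad11 in the genome, and whether the reads kept strand is not given in the sources used here.

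Cxcl14, a ligand of epithelia and stroma that attracts monocytes and immature dendritic cells, was at 67.1, 176.0 and 150.3 CPM in tumor and 165.2, 147.5 and 130.0 CPM in control libraries. Here too tumor library 1 was the lowest, and the log2 fold change of -0.17 ± 0.35 (SE, adjusted p = 0.783 by edgeR) became 0.146 without it. Cxcl16, a membrane-bound ligand of Cxcr6 that also takes up oxidized lipoprotein, was at 17.04, 14.1 and 12.97 CPM in tumor and 20.01, 21.8 and 19.1 CPM in control libraries. All 3 tumor values lay below the control values in CPM, though not in deposited TPM. The log2 fold change of Cxcl16 was -0.47 ± 0.15 (SE), with adjusted p = 0.0916 by edgeR, and 0.0417 without tumor library 1. Its gene overlaps Zmynd15, and its estimated reads were not all whole numbers.

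Cx3cl1, the membrane-bound fractalkine of endothelial and epithelial cells, was at 40.4, 26.2 and 25.7 CPM in tumor and 52.05, 27.9 and 44.6 CPM in control libraries. The ranges overlapped (log2 fold change -0.43 ± 0.28 SE, adjusted p = 0.350 by edgeR). Cx3cr1, its receptor on monocytes and tissue macrophages, was at 13.3, 13.5 and 10.9 CPM in tumor and 13.4, 12.2 and 17.1 CPM in control libraries. These values overlapped too, at -0.18 ± 0.18 (SE) with adjusted p = 0.546.

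A group of ligands that draw monocytes and eosinophils lies side by side on chromosome 11, from 82035577 to 82179812 (GRCm38.p6), in the order Ccl2, Ccl7, Ccl11, Ccl12, Ccl8 and Ccl1. Of the 5 tested, 0 were called by edgeR (1 at an unadjusted p under 0.05, 0 by DESeq2), 4 log2 fold changes were negative and 1 was positive, and their median was -0.677. Without tumor library 1 all 5 were negative with a median of -1.41, and without control library 2 the median was -0.442. With the correction for gene length it was -0.339, with 2 positive and 3 negative values. Without tumor library 2 it was -0.512 and without tumor library 3 -0.505, each with 2 positive and 3 negative values. Ccl2, the chief monocyte attractant acting on Ccr2, was at 1.87, 1.01 and 1.31 CPM in tumor and 2.38, 5.88 and 1.56 CPM in control libraries. Control library 2 held the high value, and the log2 fold change of -1.22 ± 0.55 (SE, adjusted p = 0.185 by edgeR) was -0.442 without it. Ccl7, another ligand of Ccr2, was at 0.935, 0.693 and 0.491 CPM in tumor and 0.973, 3.16 and 1.61 CPM in control libraries. All tumor values of Ccl7 lay below the control values in CPM, though not in deposited TPM. The log2 fold change of Ccl7 was -1.43 ± 0.51 (SE), with adjusted p = 0.118 by edgeR, and -0.82 without control library 2.

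Ccl12, a mouse monocyte attractant, was at 2.75, 1.39 and 1.36 CPM in tumor and 2.38, 3.05 and 3.39 CPM in control libraries, at a log2 fold change of -0.68 ± 0.36 (SE, adjusted p = 0.255 by edgeR). Without tumor library 1 the Ccl12 value was -1.09, with adjusted p = 0.0539 by edgeR. Ccl8, which in mice acts through Ccr8, was at 7.22, 1.599 and 1.42 CPM in tumor and 4.43, 3.53 and 4.14 CPM in control libraries. Tumor library 1 lay above and tumor libraries 2 and 3 below all control libraries, so the log2 fold change of -0.24 ± 0.65 (SE, adjusted p = 0.839 by edgeR) became -1.41 with adjusted p = 0.0332 without tumor library 1. Ccl11, or eotaxin, which draws eosinophils through Ccr3, was at 9.301, 2.02 and 3.98 CPM in tumor and 1.24, 7.86 and 0.646 CPM in control libraries. Tumor library 1 and control library 2 were the highest of their groups, and the log2 fold change was 0.65 ± 1.03 (SE, adjusted p = 0.716 by edgeR), 2.48 without control library 2 and -0.115 without tumor library 1. Ccr2, the monocyte receptor, was at 11.98, 5.52 and 4.59 CPM in tumor and 6.67, 7.41 and 5.94 CPM in control libraries, with a log2 fold change of 0.15 ± 0.39 (SE, adjusted p = 0.833 by edgeR). Tumor library 1 was again the highest, and without it the value was -0.392. Ccr2 had estimated reads that were not whole, so reads shared with other genes may have been divided.

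**Figure D5:**
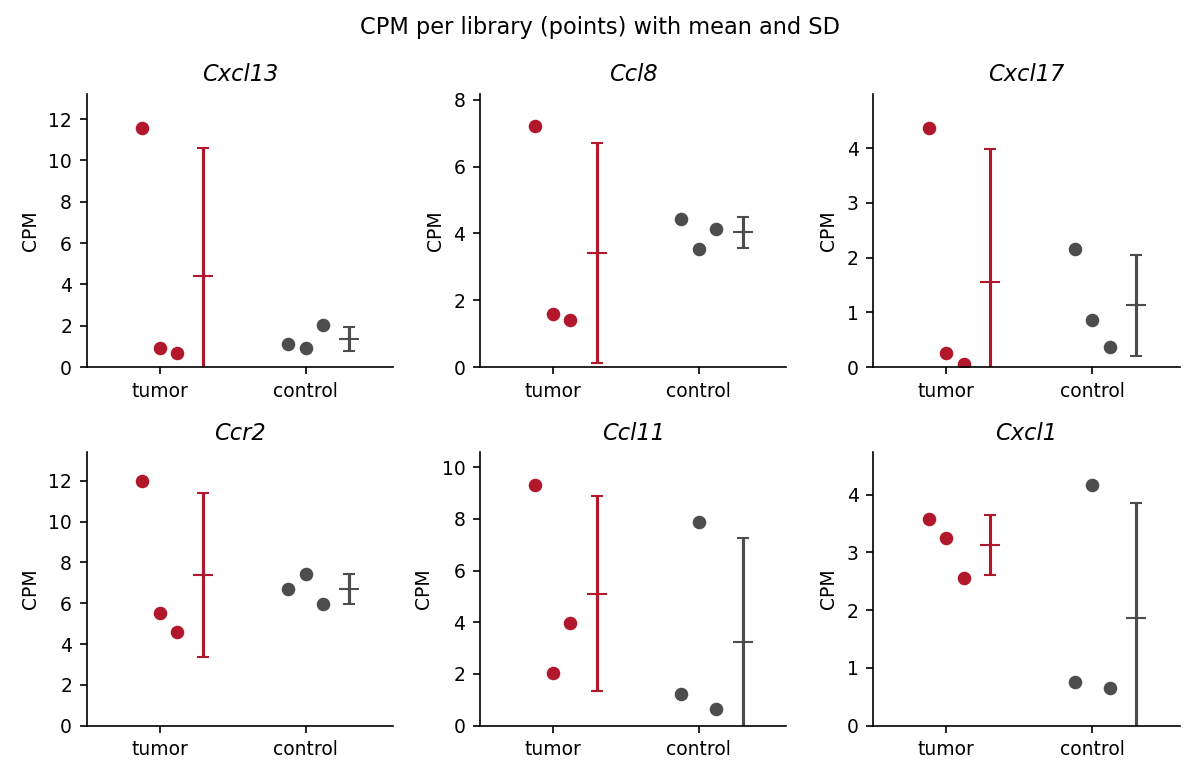
CPM in each library (points), with the mean and SD of each group (n = 3, bars end at 0), tumor in red left of control in gray, for Cxcl13, Ccl8, Cxcl17, Ccr2, Ccl11 and Cxcl1. Tumor library 1, drawn first in its group, is the highest tumor value in every panel, and control library 2 is the highest control value for Ccr2, Ccl11 and Cxcl1.

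A further 2 ligands, chosen after their values were seen, had a single high tumor library. Cxcl13, which draws B cells into follicles, was at 11.6, 0.906 and 0.709 CPM in tumor and 1.14, 0.909 and 2.04 CPM in control libraries, with a log2 fold change of 1.69 ± 1.15 (SE) that was -0.749 without tumor library 1. B and plasma cell markers summed to 23.7, 6.01 and 5.12 CPM in tumor libraries and 9.37, 17.1 and 8.39 CPM in control libraries, so tumor library 1 was the highest there as well, and 0 of these 6 markers was called by edgeR (0 also at an unadjusted p under 0.05, and 0 by DESeq2). Cxcl17, a ligand of mucosal epithelia, was at 4.37, 0.267 and 0.0545 CPM in tumor and 2.16, 0.856 and 0.377 CPM in control libraries, with a log2 fold change of 0.47 ± 1.39 (SE) that was -2.76 without tumor library 1. Oviduct epithelial markers summed to 1938, 143.0 and 58.6 CPM in tumor libraries and 2123, 2059 and 456.2 CPM in control libraries. Tumor library 1 was thus the tumor library highest in both Cxcl17 and oviduct markers, and the part of oviduct tissue in these values was not tested. Of the 8 oviduct markers, 0 were called by edgeR (0 also at an unadjusted p under 0.05, and 0 by DESeq2). Without tumor library 1, 6 had an unadjusted p under 0.05 and edgeR called 4 lower: Ovgp1, Foxj1, Dnah5 and Dnah9. That fit called 16.3% of all genes tested.

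A second row of CC ligands on chromosome 11, from 83525778 to 83664683, holds Ccl5, Ccl9, Ccl6, Ccl3 and Ccl4. Their median log2 fold change was 0.489, with 3 positive and 2 negative values and 0 called by edgeR (1 at an unadjusted p under 0.05, 0 by DESeq2). The median was 0.929 without control library 2, 0.318 without tumor library 2, 0.216 without control library 1 and 0.175 without control library 3. Ccl6, a macrophage ligand known from rodents, was the most abundant at 18.5, 8.58 and 9.48 CPM in tumor and 17.8, 14.2 and 16.4 CPM in control libraries. Tumor library 1 exceeded all control libraries and tumor libraries 2 and 3 lay below them, so the log2 fold change of -0.40 ± 0.31 (SE, adjusted p = 0.424 by edgeR) was -0.834 with adjusted p = 0.0357 without tumor library 1. Ccl4, a CC ligand made by activated macrophages and lymphocytes, was at 1.25, 1.55 and 0.709 CPM in tumor and 0.324, 0.695 and 0.215 CPM in control libraries. All tumor values lay above the control values, with a log2 fold change of 1.49 ± 0.53 (SE) and adjusted p = 0.117 by edgeR, and 2.13 with adjusted p = 0.0556 without control library 2. The Ccl3 gene overlaps Ccl4 on the other strand, and reads of these genes cannot be told apart if strand was not kept. Single libraries held only 4 to 29 reads of Ccl4.

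Among the receptors of these ligands, Ccr1, found on monocytes and neutrophils, was at 1.403, 0.799 and 0.654 CPM in tumor and 1.78, 1.71 and 1.56 CPM in control libraries. The tumor values lay below all control values in CPM, though not in deposited TPM. The log2 fold change was -0.82 ± 0.35 (SE) with adjusted p = 0.174 by edgeR. Ccr10, the receptor of Ccl27 and Ccl28, was at 1.42, 1.86 and 1.44 CPM in tumor and 1.97, 2.82 and 2.48 CPM in control libraries. Its CPM values again did not overlap, though its deposited TPM values did. Its log2 fold change was -0.63 ± 0.27 (SE) with adjusted p = 0.177 by edgeR. Its ligand Ccl27a was at 1.45, 1.696 and 1.67 CPM in tumor and 4.41, 2.003 and 2.49 CPM in control libraries, also without overlap, at -0.87 ± 0.36 (SE) with adjusted p = 0.159 by edgeR. Ccl27a has near-identical copies, which makes its estimate uncertain. Ackr2, the atypical receptor that clears inflammatory CC ligands, was at 0.675, 1.23 and 0.927 CPM in tumor and 1.297, 1.66 and 1.18 CPM in control libraries, at -0.55 ± 0.33 (SE) with adjusted p = 0.306 by edgeR.

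The ligands of Cxcr2, which brings neutrophils into tissue, lie on chromosome 5 between 90759298 and 90905938. Cxcl1 was at 3.58, 3.25 and 2.56 CPM in tumor and 0.757, 4.17 and 0.646 CPM in control libraries. Control library 2 was above all tumor libraries and control libraries 1 and 3 were below them, so the log2 fold change of 0.75 ± 0.73 (SE, adjusted p = 0.534 by edgeR) was 2.2 with adjusted p = 0.0274 without control library 2. Cxcl5 was at 0.234, 0.302 and 0.313 CPM in tumor and 0.691, 0.7499 and 0.743 CPM in control libraries. These values, from 4.5 to 14.0 reads a library, did not overlap, at a log2 fold change of -1.35 ± 0.34 (SE) with adjusted p = 0.0593 by edgeR. With limma on log2(FPKM + 1), a scale that understates changes of low genes, the value was -0.291 with adjusted p = 0.0486. Cxcl2 was not tested, at 0.156, 0.160 and 0.109 CPM in tumor and 0.108, 0.535 and 0.162 CPM in control libraries. Cxcr2 itself was at 7.77, 6.95 and 5.17 CPM in tumor and 4.63, 5.51 and 5.26 CPM in control libraries, at 0.37 ± 0.23 (SE) with adjusted p = 0.320 by edgeR. Neutrophil markers summed to 23.7, 9.36 and 9.59 CPM in tumor libraries and 11.5, 10.8 and 10.9 CPM in control libraries. Of these 9 markers 2 were tested and 0 called by edgeR (0 also at an unadjusted p under 0.05, and 0 by DESeq2), and the defining marker Ly6g was at 0 in the 3 tumor libraries and at 0 to 0.186 CPM in control libraries.

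Cxcl9 and Cxcl10, ligands of Cxcr3 on activated T and natural killer cells, are induced by interferons. Cxcl9 was at 6.55, 1.97 and 5.33 CPM in tumor and 0.776, 1.32 and 1.33 CPM in control libraries. All 3 tumor values lay above the control values, and the log2 fold change of 2.0 ± 0.51 (SE) was the most positive in the set, with adjusted p = 0.0600 by edgeR and 0.0070 by DESeq2. Over the other alternatives the value stayed positive, at adjusted p from 0.0601 to 0.214. Cxcl10 was at 3.22, 6.29 and 2.78 CPM in tumor and 1.95, 1.82 and 4.63 CPM in control libraries, with overlap, at 0.55 ± 0.50 (SE) and adjusted p = 0.498 by edgeR. Its gene overlaps Art3. Cxcr3 was at 1.195, 0.853 and 0.654 CPM in tumor and 0.432, 0.909 and 0.592 CPM in control libraries, at 0.48 ± 0.41 (SE) and adjusted p = 0.468 by edgeR. T and natural killer cell markers summed to 11.04, 11.41 and 8.72 CPM in tumor libraries and 9.98, 11.22 and 11.02 CPM in control libraries, with Cd3d, Cd3e and Cd3g between 0 and 0.382 CPM in every library.

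The promoters of these neighbours on chromosome 5 are shown because the genes share an inducer and a receptor while the groups separated in Cxcl9 and overlapped in Cxcl10. Both windows are on the minus strand of GRCm38.p6, at chr5:92328030-92328329 for Cxcl9 and chr5:92348840-92349139 for Cxcl10, with motif matches in capitals as above.
Cxcl9: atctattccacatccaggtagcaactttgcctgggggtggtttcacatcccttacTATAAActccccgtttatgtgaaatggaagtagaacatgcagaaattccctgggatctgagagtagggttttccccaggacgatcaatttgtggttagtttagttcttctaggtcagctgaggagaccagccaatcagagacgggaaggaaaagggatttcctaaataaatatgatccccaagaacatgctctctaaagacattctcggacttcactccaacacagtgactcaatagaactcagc
Cxcl10: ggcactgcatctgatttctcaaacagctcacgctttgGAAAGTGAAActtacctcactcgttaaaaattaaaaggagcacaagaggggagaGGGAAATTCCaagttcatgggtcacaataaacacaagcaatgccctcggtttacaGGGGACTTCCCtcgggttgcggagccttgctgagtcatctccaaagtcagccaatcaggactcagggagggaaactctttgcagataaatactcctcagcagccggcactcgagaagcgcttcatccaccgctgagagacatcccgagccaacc
The Cxcl10 window held matches to the NF-kappaB consensus beginning 159, 104 and 103 bases before the start, the last pair overlapping, and a match to TTTCNNTTTC on the opposite strand from 213 bases before it. The Cxcl9 window held TATAAA from 195 bases before the start and no other match to the letters searched. The NF-kappaB consensus was found in 10 of the 45 promoters of the set (22.2%), against 8.18% of all 27025 promoters. The interferon-stimulated element was found in 6.67% of the set and 3.49% of all, the STAT element in 8.89% of the set and 8.47% of all, and the hypoxia core in 13.3% of the set and 19.7% of all.

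At the low end, 16 genes of the set were not tested, with a mean of at most 0.892 TPM. In 7 of the 59 genes no library held more than 3 estimated reads: Ccl1, Ccl20, Ccl26, Cxcl3, Ccr1l1, Ccr8 and Cxcr1. No difference in these genes was detectable at this depth. The other untested genes were Ccl19, Cxcl2, Cxcl15, Xcl1, Ccr3, Ccr4, Ccr6, Ccr9 and Cxcr5. Ccr6, a receptor of B cells and dendritic cells named after its values were seen, was at 0.468, 0.640 and 0.529 CPM in tumor libraries, against 0.217, 0.0535 and 0.312 CPM in control libraries, without overlap. Another 12 tested genes, Ccl3, Ccl5, Ccl9, Ccl17, Ccl22, Ccl24, Ccl25, Ccl27b and Ccl28 among the ligands with Ackr1, Cxcr6 and Xcr1 among the receptors, had group means between 0.555 and 11.4 CPM and log2 fold changes from -0.45 to 0.73, and were not called. Without control library 2 the log2 fold change was 1.47 for Ccl3 (adjusted p = 0.0684 by edgeR), 1.46 for Ackr1 (0.250), 1.34 for Cxcr6 (0.114) and 1.17 for Ccl22 (0.393).

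Signaling downstream of the receptors was read from 37 genes, all tested. Of these, 2 were higher and 0 lower in tumor by edgeR, 11 had an unadjusted p under 0.05, and DESeq2 called 6 higher and 2 lower. The edgeR calls are 5.41% of the list, against 7.71% of all genes, and 29.7% had an unadjusted p under 0.05, against 31.0% of all genes, so the counts were near the background. The median log2 fold change was 0.0733. Pik3cd, the leukocyte form of the PI3-kinase catalytic subunit, was at 46.9, 61.0 and 58.0 CPM in tumor and 35.0, 38.4 and 36.7 CPM in control libraries, without overlap, at 0.59 ± 0.12 (SE) and adjusted p = 0.0424 by edgeR. Grk3, a kinase that desensitizes activated receptors, was at 44.4, 48.4 and 41.9 CPM in tumor and 26.0, 34.0 and 25.3 CPM in control libraries, without overlap, at 0.66 ± 0.14 (SE) and adjusted p = 0.0463 by edgeR. The next were Gnai2, the main inhibitory G protein subunit of leukocytes, at -0.40 (adjusted p = 0.0559), and Prkcb, a protein kinase C, at 0.64 (adjusted p = 0.0601). With the correction for gene length the calls of Pik3cd and Grk3 ended (adjusted p = 0.0788 and 0.0972).

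Inducers of chemokine genes were read from 14 genes, of which 12 were tested. Here 0 were higher and 1 was lower in tumor by edgeR, 3 had an unadjusted p under 0.05, DESeq2 called 0 higher and 2 lower, and the median log2 fold change was -0.0702. The edgeR call is 8.33% of the tested list, against 7.71% of all genes, and 25.0% had an unadjusted p under 0.05, against 31.0% of all genes. Nfkb2, the precursor of the p52 subunit of NF-kappaB, was at 50.9, 51.3 and 45.6 CPM in tumor and 89.2, 63.7 and 84.5 CPM in control libraries. Its groups did not overlap, at -0.68 ± 0.14 (SE) and adjusted p = 0.0442 by edgeR, or -0.74 with adjusted p = 0.0564 with the correction for gene length. Relb, which pairs with p52, was at -0.40 (adjusted p = 0.0683), Tnf at 1.74 (0.107) and Il1a at -0.76 (0.314). Il6 and Ifng were not tested.

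Without a single library, tumor 2 or 3 or control 1 or 3, the calls of Pik3cd, Grk3 and Nfkb2 ended, at adjusted p between 0.109 and 0.170. Their log2 fold changes in these fits were 0.513 to 0.617 for Pik3cd, 0.599 to 0.704 for Grk3 and -0.713 to -0.566 for Nfkb2. Among 9 genes of other names that bind or modify chemokines, 8 were tested and 0 called by edgeR (2 at an unadjusted p under 0.05, 0 by DESeq2), with a median of -0.201. Those with the smallest p were Gpr1, a chemerin receptor, at 0.70 (adjusted p = 0.112), Ccrl2, which presents chemerin, at -0.73 (0.155), Mif, a cytokine that also binds Cxcr4, at -0.43 (0.217), and Pf4, the platelet chemokine Cxcl4, at -0.79 (0.236).

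In the authors' deposited table, made with DESeq2, 2 of the 59 genes had a q under 0.05, while 14.7% of its 19327 genes did. The authors' deposited table gave Cxcr4 a log2 fold change of -0.941 (q = 0.000342), Cxcl9 one of 2.06 (q = 0.00693) and, as the next, Ackr4 one of -1.59 (q = 0.0557). The sign of the authors' deposited table is tumor over control, since 98.9% of the genes tested here had the same sign in both.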

How the data were processed

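RNA of 3 tumor and 3 control ovaries was read as single 50-base ends, per the labels' protocols. The submitters' processing notes name GRCm38.p6, RSEM 1.2.12, Bowtie2 2.2.5 and HISAT2 2.0.4 without saying what each was for. On RNA selection and strand, nothing is given in the sources used here. Estimated counts were deposited by the authors, and 39.2% of those above 0 were not whole. The authors also deposited FPKM and TPM, per the file headers. A comparison table deposited by the authors, headed DESeq2, holds q-values, p-values and log2 fold changes. A further 24 columns of per-sample values, which repeat others, were not used.

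Estimated counts were rounded, filtered with filterByExpr of edgeR 4.0.16 (R 4.3.3), TMM-scaled and tested with the robust quasi-likelihood F test, group as the only term, with Benjamini-Hochberg adjustment over 15787 genes at 0.05. The SE is the absolute log2 fold change over the square root of F. CPM use TMM-scaled totals, except the limits for 0 reads, which use plain totals. The script was tested on simulated data. Motifs were searched in RefSeq promoters of GRCm38.p6, matched by gene ID for 45 of 59 genes.

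Alternatives were DESeq2 1.42.0, its size factors, no filter, a replicate block, a gene length correction (lowess offset, span 0.3), limma 3.58.1 on log2(FPKM + 1) and log2(FPKM + 0.1), no robust dispersion, and each library left out.

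The members and gene lists were chosen with earlier results of these data known. Values in every library are given for genes with adjusted p under 0.05, the 12 highest in TPM, the groups Cxcl12-Cxcr4-Ackr3, Cx3cl1-Cx3cr1, Ccl2-Ccr2, Ccl19-Ccl21a-Ccr7, Cxcl1-Cxcl2-Cxcl5-Cxcr2 and Cxcl9-Cxcl10-Cxcr3, and the 6 further members with the smallest p. From each pathway list the called genes and the 4 with the smallest p are named. Cxcl13, Cxcl17 and Ccr6 fall outside this rule. Of the set, 1 member enters counts and medians but is not reported here on its own.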

Additional observations from a re-analysis of the deposited data

How the results depend on the processing

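The median log2 fold change of the 43 tested chemokine and receptor genes lay between -0.307, without tumor library 1, and 0.000191, with the gene length correction, over 14 alternatives. Of these genes, 28 kept their sign in all 14, Cxcr4 among them. DESeq2 called 1 gene of the set higher and 2 lower, limma on log2(FPKM + 1) and on log2(FPKM + 0.1) each called 2 lower, and edgeR with the gene length correction called 0, with 5 at an unadjusted p under 0.05. With 1 library left out, 0 to 1 genes of the set were higher and 0 to 5 lower. Over all genes tested, 600 higher and 617 lower in edgeR, DESeq2 called 1526 higher and 1503 lower, the length correction 162 higher and 212 lower, and the fits without 1 library 0 to 1188 higher and 0 to 1534 lower. Of 15787 genes, limma called 758 higher and 584 lower on log2(FPKM + 1), and 747 higher and 589 lower on log2(FPKM + 0.1). Each edgeR fit without tumor library 2 or 3 or control library 1 or 3 called at most 5 genes in either direction. The labels do not say whether the 3 replicate numbers pair the samples. The deviations of same-numbered libraries from their group means correlated at 0.238, -0.212 and 0.529. With no differently numbered libraries set beside them, these values cannot decide it. In edgeR with the replicate block 0 genes of the set and 0 of all genes were called higher or lower, 6 of the set had an unadjusted p under 0.05, and Cxcr4 was at -0.94 with adjusted p = 0.0982. For the length and block fits, the share of all genes at an unadjusted p under 0.05 is not given here.

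The sign of 15 genes, none of them called, turned in at least 1 alternative, and the cause was not tested. Values are given for 14 of them. With the length correction, Ackr3 was at 0.000191, Ccl8 at 0.13 and Ccl17 at 0.0457. Cxcl17 was at -0.532 with the replicate block, -0.0792 on log2(FPKM + 1) and -0.701 on log2(FPKM + 0.1). Leaving out 1 library gave ranges of -0.307 to 1.46 for Ackr1, -0.157 to 0.0212 for Ackr3, -0.115 to 2.48 for Ccl11, -0.66 to 0.168 for Ccl17, -0.165 to 0.252 for Ccl24, -0.402 to 0.0222 for Ccl27b and -0.3 to 0.638 for Ccl28. The ranges were -1.41 to 0.128 for Ccl8, -0.392 to 0.394 for Ccr2, -1.0 to 0.0438 for Ccr7 and -0.239 to 0.00139 for Cx3cr1. They were -0.749 to 2.19 for Cxcl13, -0.441 to 0.146 for Cxcl14 and -2.76 to 1.37 for Cxcl17. Among the genes not called, 7 passed the threshold in at least 1 alternative: Ackr4, Ccl6, Ccl8, Cxcl1, Cxcl5, Cxcl9 and Cxcl16. With 3 libraries a group and few reads for many of these genes, small differences were not detectable at this depth.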
